A study of Mus musculus with 26 samples.

Results

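Genes of the lysosome and of the vacuolar ATPase were followed through both experiments of a series on mouse neural stem cells. The list named 39 genes, and probe sets whose annotation named 1 such gene alone were averaged on the log2 scale to give its value. By this rule 38 of the 39 had a value, out of 23152 genes measured, from 541 probe sets (6 to 25 per gene, with a median of 13.5). Atp6v0c, which encodes the proteolipid of the proton-carrying ring, was not analysed here.

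The lysosome is the compartment in which a cell digests material taken up from outside or delivered by autophagy, and its enzymes work in an acid lumen. The vacuolar ATPase makes that acid: its V1 sector hydrolyses ATP, and its V0 sector, set in the membrane, carries protons inward. TFEB and TFE3, transcription factors of the MiT/TFE family, bind the letters CACGTG and their extended forms in promoters of many lysosomal genes. QKI, encoded by Qk in the mouse, belongs to the STAR family of RNA-binding proteins and acts on splicing and on RNA stability. Loss of QKI has been described in neural stem cells and glioma cells together with fewer endolysosomal components.

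By role, the measured genes were 6 subunits of the V1 sector (Atp6v1a, Atp6v1b2, Atp6v1c1, Atp6v1d, Atp6v1e1 and Atp6v1h), 4 of the V0 sector (Atp6v0a1, Atp6v0a2, Atp6v0b and Atp6v0d1) and the accessory protein Atp6ap1. There were 8 membrane proteins (Lamp1, Lamp2, Npc1, Scarb2, Cd63, Cd68, Mcoln1 and Laptm4a) and 7 proteases with a protective partner among them (Ctsa, Ctsb, Ctsd, Ctsf, Ctsl, Ctsz and Tpp1). The list also held 7 glycosidases and other hydrolases (Hexa, Gaa, Glb1, Gusb, Neu1, Ppt1 and Sgsh), 3 luminal carriers and activators (Npc2, Psap and Grn), and the factors Tfeb and Tfe3.

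All cells were neural stem cells from wild-type C57BL6 embryos at E14.5, and all received a lentiviral transgene. In the first experiment, each of 3 pools of cells received eGFP, the control (6 arrays), or 1 of 4 other transgenes: QKItr, MYBtr, MYBQKI5 and MYBQKI6 (3 arrays each). The eGFP arrays were 2 repeats per pool and were averaged, so that each of the 5 construct groups had n = 3. In the second experiment all cells carried MYBQKI6, and either Qk (5 arrays) or the bacterial control target LacZ (3 arrays) was suppressed as well. MYBQKI is a fusion of the transcription factor MYB with QKI, known from angiocentric glioma, and 5 and 6 are names of QKI splice forms. The meaning of tr and of the first number in a Qk sample's title is not given in the labels, nor is whether pools or samples came from separate animals or cultures. The p-values therefore measure only the spread between these samples, which may be technical, and the number of arrays limits the precision.

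On every one of the 15 pool columns, 37 of the 38 genes gave a value above the median of all genes, and 36 did so on all 8 suppression arrays. Tfeb was below that median on all 15 pool columns and on 7 of the 8 suppression arrays, and Cd68 was below it on 3 of those 8. Of 10 markers of neural stem cells, 9 lay above that median on all 15 columns, and Prom1 did not (3.30 to 3.82). None of 12 markers of microglia and macrophages did so. The arrays were of bulk RNA, in which fewer cells of a type and less RNA per cell cannot be told apart.

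The promoters are shown first because some of them carry CACGTG, the letters named above as bound by TFEB and TFE3. RefSeq promoter sequences (GRCm38.p6, 250 bases before to 50 after the annotated start) were matched by symbol for 32 of the 38 genes, with 37 promoters in all. The 6 genes Atp6v1h, Atp6v1b2, Atp6v1c1, Atp6v0a2, Npc1 and Ctsb had no matched sequence. On both strands, CACGTG was present in 12 of the 32 genes (37.5%) and in 8.09% of the 27025 genes of the table. The longer TCACGTG, which contains it, was present in 10 (31.2%), against 4.29% of genes, and the palindrome TCACGTGA in 5 (15.6%), against 1.12%. Counted by promoter, 10 of 37 (27%) held TCACGTG, against 3.77% of all 32851 promoters of the same length. The fullest form searched, the 10-base palindrome that adds G before and C after TCACGTGA, was in none of the 37 and in 0.326% of all. A match is a description of the letters and not a measured binding site.

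Below are 250 bases before and 10 from the start of 6 promoters, 5′ to 3′ on the gene's strand. They belong to Atp6v1a, Ctsl and Cd68 and to 3 of the others with TCACGTGA. The first 3 had a limma adjusted p under 0.05 when the MYB constructs were jointly compared with eGFP. That fit used the pool number as a block, and 3 of the 38 genes passed, against 7.07% of all genes. Without the block none of the 38 passed. The comparison was added after the values were seen. Capitals mark CACGTG and the adjoining T or A where TCACGTG or its reverse complement was matched. Atp6v1a, at chr16:44139250-44139509 on the minus strand, had its match 132 bases before the start. Atp6v0d1, at chr8:105566055-105566314 on the minus strand, had it across the start itself. Ctsd (chr7:142387818-142388077, minus strand) and Mcoln1 (chr8:3500269-3500528, plus strand) each had 2 matches. Ctsl, at chr13:64370511-64370770 on the minus strand, held CACGTG without the flanking T, 236 bases before the start. Cd68, at chr11:69666161-69666420 on the minus strand, held no CACGTG in this window.
Atp6v1a: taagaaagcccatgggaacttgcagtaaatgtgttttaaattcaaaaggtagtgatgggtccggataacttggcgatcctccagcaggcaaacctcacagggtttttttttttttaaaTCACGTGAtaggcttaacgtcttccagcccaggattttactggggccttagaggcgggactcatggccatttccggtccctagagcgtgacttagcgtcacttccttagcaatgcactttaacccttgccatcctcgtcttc
Atp6v0d1: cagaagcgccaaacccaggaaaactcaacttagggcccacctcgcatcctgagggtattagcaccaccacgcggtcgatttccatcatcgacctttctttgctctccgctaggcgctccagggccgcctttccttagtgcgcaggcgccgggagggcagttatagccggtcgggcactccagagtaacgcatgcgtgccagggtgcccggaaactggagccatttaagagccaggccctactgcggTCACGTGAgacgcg
Ctsd: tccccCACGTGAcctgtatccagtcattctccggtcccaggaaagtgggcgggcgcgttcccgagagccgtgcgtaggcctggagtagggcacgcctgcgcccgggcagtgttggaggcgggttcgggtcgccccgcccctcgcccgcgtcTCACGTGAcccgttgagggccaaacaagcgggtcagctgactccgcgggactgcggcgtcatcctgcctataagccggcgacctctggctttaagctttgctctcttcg
Mcoln1: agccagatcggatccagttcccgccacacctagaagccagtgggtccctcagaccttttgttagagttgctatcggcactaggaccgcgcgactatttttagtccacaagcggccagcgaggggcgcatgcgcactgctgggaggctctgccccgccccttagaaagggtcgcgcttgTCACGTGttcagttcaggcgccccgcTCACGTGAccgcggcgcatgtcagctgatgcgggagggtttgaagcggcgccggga
Ctsl: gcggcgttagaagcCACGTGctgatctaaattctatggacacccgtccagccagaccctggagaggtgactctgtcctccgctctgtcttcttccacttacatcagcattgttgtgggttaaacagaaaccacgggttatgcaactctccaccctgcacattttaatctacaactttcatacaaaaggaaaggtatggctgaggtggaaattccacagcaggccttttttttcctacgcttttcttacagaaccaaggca
Cd68: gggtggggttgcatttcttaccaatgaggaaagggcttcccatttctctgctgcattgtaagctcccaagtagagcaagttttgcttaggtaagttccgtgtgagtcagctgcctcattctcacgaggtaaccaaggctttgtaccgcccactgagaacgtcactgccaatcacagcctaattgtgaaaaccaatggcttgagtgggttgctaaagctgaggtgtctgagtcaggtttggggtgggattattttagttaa

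The second experiment asked what suppressing the cells' own Qk adds in cells with MYBQKI6. Qk itself read 9.68, 9.70 and 9.74 on the LacZ arrays and 9.35, 9.30, 9.46, 9.70 and 9.58 on the Qk arrays 5_2, 6_1, 6_3, 9_1 and 9_3. The library labelled 9_1 lay inside the LacZ range and the other 4 below it. The difference was -0.24 on the log2 scale (SE 0.15, 95% interval -0.56 to 0.08), with a limma adjusted p = 0.726. Every statement below on Qk suppression follows the labels and rests on groups whose Qk signal was not separated by the test.

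None of the 38 lysosome and vacuolar ATPase genes was called between Qk and LacZ suppression. Called here means a Benjamini-Hochberg adjusted p under 0.05 over all 23152 genes in limma, with the second number of the sample title (1, 2 or 3) as a block. The background was 0.00432% of genes called, which is 1 gene. At an unadjusted p under 0.05 there was 1 of the 38, Cd68, against 7.49% of all genes. The 38 differences ran from -0.48 to 0.31, with 24 above 0 and 14 below. Their median was 0.022, and the median of all genes was 0.031.

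The intervals give the size of change that these arrays could still hold. All 38 of the 95% intervals lay within 1 log2 unit of 0, that is within a 2-fold change either way, as they did for 97.7% of all genes. The lowest bound was -0.96, for Cd68, and the highest was 0.70, for Tfeb. In no gene did the 5 Qk arrays lie wholly apart from the 3 LacZ arrays, against 3.39% of all genes.

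**Figure D1:**
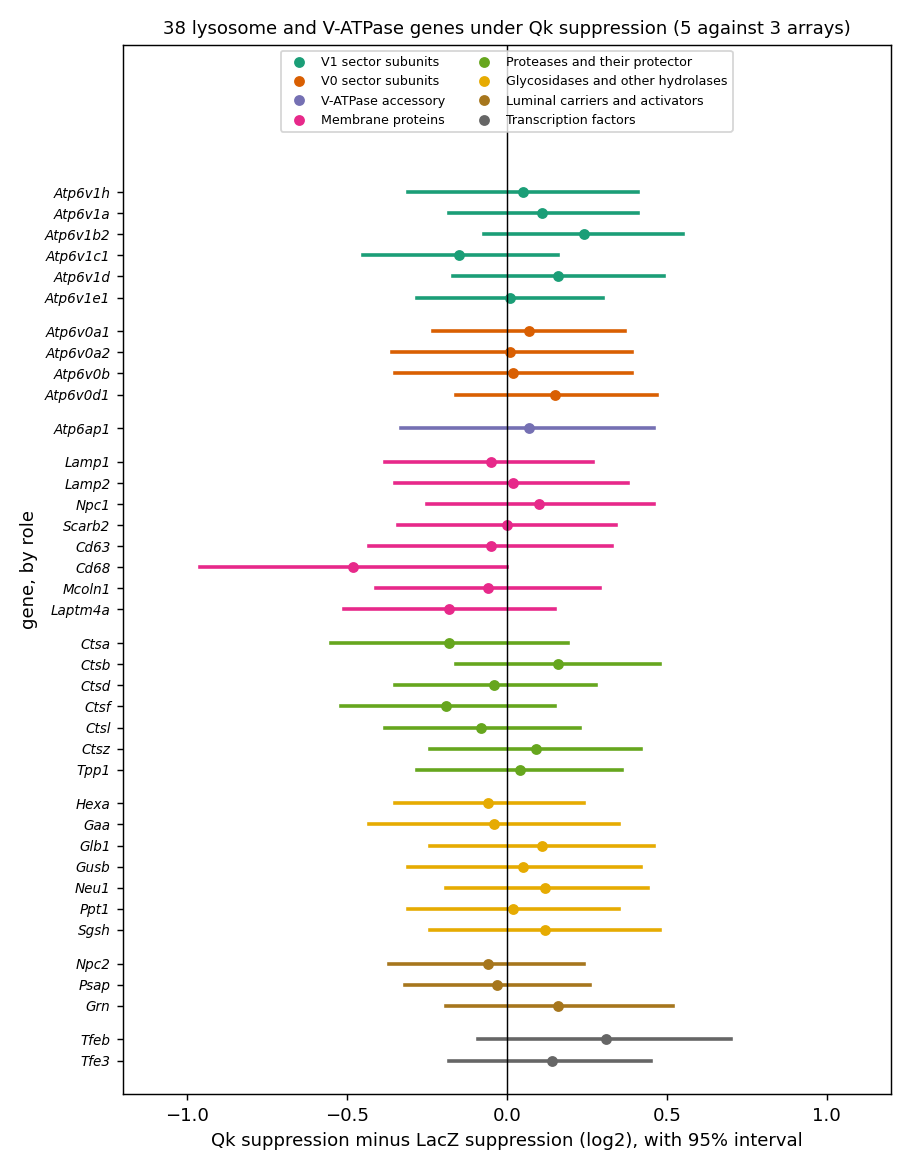
Difference between Qk and LacZ suppression on the log2 scale (horizontal axis) for each of the 38 genes, coloured by role. Points are limma estimates with the second title number as a block (5 against 3 arrays) and bars are 95% intervals. All bars lie between -0.96 and 0.70, and Cd68 stands lowest at -0.48.

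None of the subunits of the proton pump passed the test. Their signs were mostly positive, as were those of 56.4% of all genes. The 15 further subunits had a median of -0.01, and 8 of the 15 lay above the gene median on all 8 suppression arrays. Of the 6 V1 subunits 5 were above 0, with a median difference of 0.08, and all 4 V0 subunits were above 0, with a median of 0.05. Atp6ap1 differed by 0.07. The largest of these differences was that of Atp6v1b2, which encodes the B2 subunit in the ring of A and B subunits that binds ATP. Atp6v1b2 read 8.52, 8.43, 8.83, 8.63 and 8.61 with Qk suppression and 8.26, 8.49 and 8.37 with LacZ suppression. Only array 6_1 of the Qk group fell inside the LacZ range, and the difference was 0.24 (SE 0.14, limma adjusted p = 0.716).

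Among the membrane proteins, 3 of 8 were above 0 and the median difference was -0.05. Cd68 encodes a heavily glycosylated protein of the lysosomal membrane that is abundant in macrophages. Cd68 read 4.61, 5.49, 4.34, 6.41 and 4.87 with Qk suppression and 6.48, 4.76 and 5.29 with LacZ suppression. The high arrays of both groups, 6_1, 9_1 and LacZ 1, shared the second number 1, and the groups overlapped. With that number as a block the difference was -0.48 (SE 0.22, 95% interval -0.96 to 0.00), and the limma adjusted p was 0.661. Without the block it was -0.37, with a limma adjusted p = 0.999. Laptm4a, a transmembrane protein of late endosomes and lysosomes, read 8.61, 8.80, 9.06, 9.11 and 9.18 against 8.87, 8.98 and 9.41, a difference of -0.18 (SE 0.15, limma adjusted p = 0.793).

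The 12 markers of microglia and macrophages were read beside Cd68, since it is also expressed in those cells. Their mean ran from 4.01 to 4.22 over the Qk arrays and from 3.96 to 4.36 over the LacZ arrays, and none was called. Their part in the Cd68 values was not tested.

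The enzymes lay as close to 0. Of the 7 proteases 3 were above 0 (median difference -0.04), and of the 7 glycosidases and other hydrolases 5 were (median 0.05). Ctsf, the cysteine protease cathepsin F, read 6.40, 6.71, 6.60, 7.09 and 6.95 against 7.15, 6.58 and 6.90, and differed by -0.19 (SE 0.15, limma adjusted p = 0.785). Ctsb, cathepsin B, read 9.37, 9.71, 9.29, 9.85 and 9.62 against 9.65, 9.37 and 9.15. Its difference was 0.16, with a limma adjusted p = 0.808, and 2 of the 5 Qk arrays lay above every LacZ array. The 3 luminal proteins had a median of -0.03.

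Both transcription factors had positive differences. Tfeb read 4.52, 4.44, 4.94, 4.57 and 4.23 with Qk suppression and 4.06, 4.51 and 4.19 with LacZ suppression, below the gene median on 7 of the 8 arrays. Array 9_3 and array 6_1 lay inside the LacZ range, and the difference was 0.31 (SE 0.18, 95% upper bound 0.70, limma adjusted p = 0.710). Tfe3 differed by 0.14. The 10 genes with TCACGTG in a promoter had a median difference of -0.01, and the 22 with a promoter but without these letters had 0.02.

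**Figure D2:**
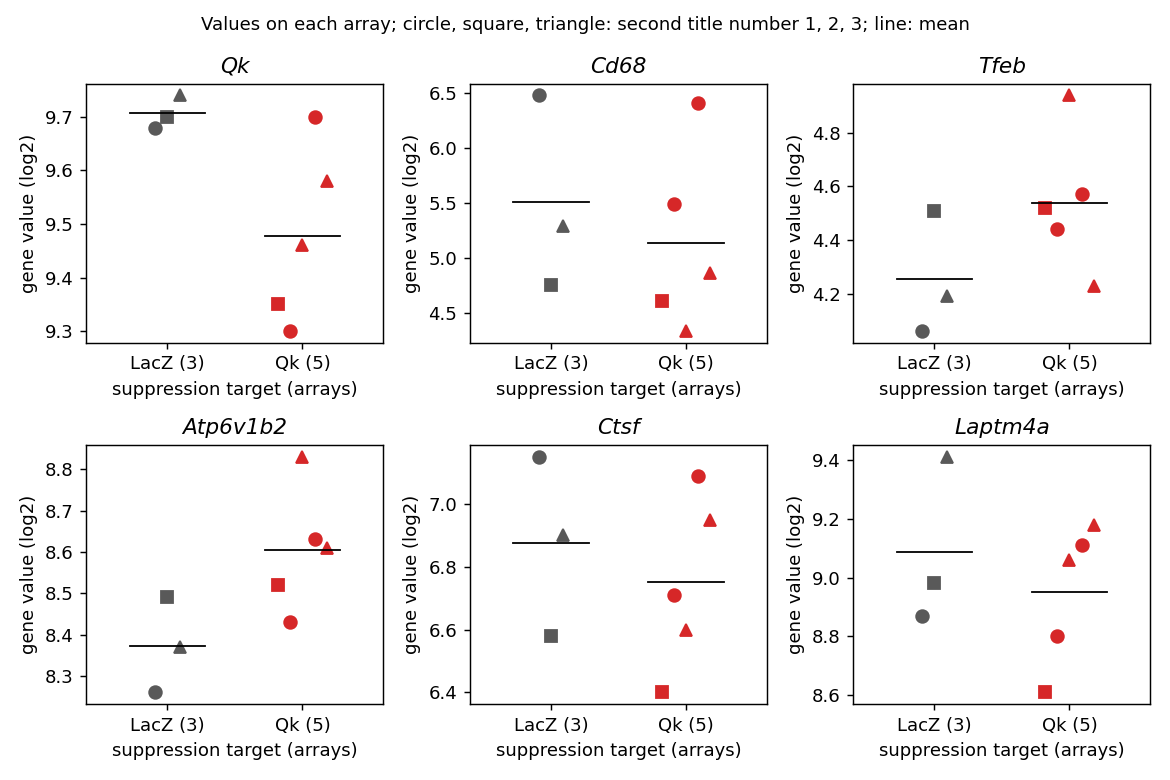
Log2 values on each of the 8 suppression arrays (vertical axes) for Qk and for 5 of the genes, by suppression target (horizontal axes). Points are arrays, their shape gives the second title number, and lines are group means. In each panel at least 1 Qk array lies inside the LacZ range, and the Cd68 values are high on all 3 arrays numbered 1.

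Because QKI acts on splicing, single probe sets were also examined. None of the 541 probe sets of these genes was called on its own among 269751 in limma, where 0 of all probe sets were called. At an unadjusted p under 0.05 there were 13 (2.40%), against 7.28% of all probe sets. A second test, limma's diffSplice, set each probe set against the rest of its gene and called 3 of 541 (0.555%), against 0.504% of the 231434 probe sets tested, so the share was near the background. All 3 were toward the dim end, with values of 1.67 to 5.65.

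The 3 differences lay in Grn, Ctsl and Ctsb. Probe set 17256961 of Grn, the gene of progranulin, read 3.81, 5.24, 3.84, 5.65 and 4.41 with Qk suppression and 3.86, 3.50 and 1.67 with LacZ suppression. Relative to the other probe sets of Grn it was 1.50 higher (diffSplice adjusted p = 5.9e-04). The lowest of these values, 1.67, was that of LacZ array 3, and without that array the difference was 1.16 and the adjusted p was 0.052. Probe set 17293707 of Ctsl was 1.21 higher (diffSplice adjusted p = 0.013) and kept its call in 3 of 8 fits that left out 1 array. Probe set 17301224 of Ctsb differed by -0.85 (diffSplice adjusted p = 0.030) and kept its call in 2 of 8, and without the block its adjusted p was 0.084.

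The first experiment asked what each construct changes against eGFP. All 4 comparisons share the same eGFP samples, so their values are given side by side and are not independent. Myb, which checks the labels, read 4.30, 4.37 and 5.18 with eGFP in pools 1, 2 and 3 and 6.80 to 7.89 on the 9 arrays with a MYB construct. Its differences were 2.62 (MYBtr), 2.37 (MYBQKI5) and 2.84 (MYBQKI6), with limma adjusted p = 2.6e-04, 0.0019 and 3.5e-04. Qk read 10.95, 10.78 and 10.61 with eGFP and 11.43, 10.98 and 10.69 with QKItr, a difference of 0.25 (limma adjusted p = 1.00). The Qk signal did not separate QKItr from eGFP by this test.

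Most of the 38 genes were little different with the MYB constructs, and the largest difference with each was that of Cd68. In the fit without a pool term none of the 38 was called with any construct, against 0% of all genes for QKItr, 1.37% for MYBtr, 0.199% for MYBQKI5 and 0.765% for MYBQKI6. At an unadjusted p under 0.05 there were 2 (MYBtr), 2 (MYBQKI5), 4 (MYBQKI6) and 0 (QKItr), the order kept below, against 9.44%, 6.80%, 7.82% and 1.56% of all genes. With the pool number as a block, Cd68 fell with all 3 MYB constructs and Ctsl rose with MYBQKI6. That made 1, 1, 2 and 0 genes called, against 5.97%, 2.63%, 4.39% and 0% of all genes. At an unadjusted p under 0.05 the block fit had 9, 5, 6 and 3, against 17.2%, 13.5%, 14.6% and 4.60%.

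For MYBtr the 38 differences had a median of 0.087 (all genes -0.014). The median was 0.038 for MYBQKI5 (all genes -0.0066), 0.037 for MYBQKI6 (-0.0049) and -0.038 for QKItr (-0.0063). Of the 38, 23, 24, 22 and 14 were above 0 in these comparisons, against 47.1%, 48.5%, 48.8% and 48.3% of all genes. In all 3 pools MYBtr was above eGFP in 17 of the 38 (18.7% of all genes) and below it in 7 (20.7%). For MYBQKI5 these counts were 7 (15.6%) and 5 (18.5%), for MYBQKI6 12 (17.9%) and 5 (19.4%), and for QKItr 3 (13.9%) and 11 (17.5%). Samples wholly apart from those of eGFP were rarer. With MYBtr 2 genes were wholly above (Ctsb and Gusb, against 7.03% of all genes) and 2 wholly below (Cd68 and Tfeb, 7.44%). With MYBQKI5 Ctsl was wholly above (4.94%) and Cd68 wholly below (6.30%). With MYBQKI6 Neu1 was wholly above (6.62%) and Cd68 and Tfeb wholly below (6.51%). With QKItr none was wholly above (3.44%), and Atp6v1d, a V1 stalk subunit, was wholly below (3.35%).

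Cd68 read 6.49, 7.83 and 6.78 with eGFP in pools 1, 2 and 3. It read 5.23, 6.31 and 6.11 with MYBtr, 5.63, 6.32 and 6.42 with MYBQKI5, 5.22, 6.35 and 6.22 with MYBQKI6, and 6.09, 7.00 and 6.41 with QKItr. In every pool each MYB construct lay below eGFP, and the 9 MYB values lay below all 3 eGFP values. QKItr was also below eGFP in every pool (-0.40, -0.83 and -0.38), but its values overlapped with those of eGFP. Within pools the differences ran from -0.68 to -1.52 with MYBtr, from -0.37 to -1.52 with MYBQKI5 and from -0.56 to -1.48 with MYBQKI6, each largest in pool 2. The 2 eGFP arrays of a pool differed by less, at 6.53 and 6.45, 7.74 and 7.92, and 6.69 and 6.88.

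Over the 3 pools Cd68 differed by -1.15 with MYBtr, -0.92 with MYBQKI5 and -1.10 with MYBQKI6. The limma adjusted p was 0.259, 0.688 and 0.358 without the pool term (SE 0.40) and 0.0021, 0.015 and 0.0034 with it (SE 0.18). Each of the 8 probe sets of Cd68 had a lower mean with each MYB construct and with QKItr than with eGFP. Tested singly with the block, 1 of the 541 was called with MYBtr, probe set 17264842 of Cd68 (-1.30, limma adjusted p = 0.049), against 0.533% of all probe sets, and 0 without the block, against 0.185%. In block fits that left out 1 sample, Cd68 kept its call in 6 of 6 with MYBtr and with MYBQKI6, with differences of -1.37 to -0.95 and -1.32 to -0.89. With MYBQKI5 it kept it in 3 of 6 and lost it without the MYBQKI5 sample of pool 2 (limma adjusted p = 0.072) or without eGFP of pool 1 (0.074) or pool 2 (0.105). With QKItr the difference was -0.54 (limma adjusted p = 1.00, and 0.989 with the block).

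None of the 12 markers of microglia and macrophages was called with any construct. Their mean ran from 4.11 to 4.31 with eGFP, 3.99 to 4.20 with MYBtr, 4.04 to 4.40 with MYBQKI5, 4.15 to 4.26 with MYBQKI6 and 4.13 to 4.21 with QKItr. None of the 12 lay above the gene median on all 15 columns. Cx3cr1 did so on 11 of them (4.89 to 5.38) and on all 8 suppression arrays, and C1qa on 4 (4.27 to 5.19), while Aif1, Itgam and P2ry12 ran from 3.33 to 4.12, 3.52 to 3.96 and 3.41 to 4.19. Other markers did move with the MYB constructs. With the pool block, 3 of 5 markers of oligodendrocyte precursors fell with each of them (Cspg4, Olig1 and Olig2), and so did the astrocyte marker Gfap and the stem cell marker Nes. These fits called 5.97%, 2.63% and 4.39% of all genes. Cspg4 fell by 1.34, 1.19 and 1.36 log2 units and Nes by 1.04, 0.96 and 1.11. The stem cell marker Vim rose with each of them (0.51, 0.39 and 0.47), and so did the oligodendrocyte marker Cnp (0.79, 0.79 and 1.02). Cnp was called without the block too with MYBtr and MYBQKI6 (limma adjusted p = 0.035 and 0.014). So was Cspg4, lower with MYBtr and MYBQKI6, and Gfap, lower with MYBtr. The precursor marker Pdgfra had positive differences (0.73, 0.58 and 0.70), called higher only in the joint comparison of the 3 MYB constructs with the block (0.67, limma adjusted p = 0.031). The precursor list averaged 8.13 to 8.27 with eGFP and 7.49 to 7.83 over the 9 MYB samples. Their part in the values of Cd68, Ctsl and the other genes was not tested.

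Ctsl encodes cathepsin L, a cysteine protease of the lysosome. It read 8.07, 7.91 and 7.59 with eGFP, 8.88, 8.13 and 7.98 with MYBtr, 8.72, 8.51 and 8.18 with MYBQKI5, 9.16, 8.56 and 8.04 with MYBQKI6 and 7.86, 7.79 and 8.01 with QKItr. Each MYB construct was above eGFP in each pool, but only with MYBQKI5 did the values lie wholly above those of eGFP. The differences were 0.47, 0.61 and 0.73, with limma adjusted p = 0.702, 0.700 and 0.384 without the pool term and 0.185, 0.110 and 0.037 with it. The call with MYBQKI6 held in 1 of 6 block fits that left out a sample, without the MYBQKI6 sample of pool 3 (limma adjusted p = 0.020). In the other 5 the limma adjusted p ran from 0.095 to 0.202.

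Atp6v1a, the catalytic A subunit of the V1 sector, was called with no single construct. It read 8.86, 8.48 and 8.49 with eGFP, 9.33, 8.84 and 8.79 with MYBtr, 9.10, 8.65 and 8.95 with MYBQKI5, 9.33, 8.89 and 8.84 with MYBQKI6 and 8.84, 8.18 and 8.48 with QKItr. Pool 1 was high in each of these groups, and within each pool every MYB construct was above eGFP. Its differences were 0.38, 0.29 and 0.41, and the limma adjusted p with the block was 0.065, 0.240 and 0.053. The mean of the 3 MYB constructs against eGFP, a comparison added after the values were seen, was 0.36 (limma adjusted p = 0.026 with the block, 0.530 without).

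In that joint comparison with the block, 3 of the 38 genes were called, against 7.07% of all genes, and without the block 0 were, against 2.00%, with 3 at an unadjusted p under 0.05. Cd68 fell by 1.06 log2 units (limma adjusted p = 6.1e-04) and Ctsl rose by 0.60 (limma adjusted p = 0.024). Cd68 kept its call in 12 of 12 block fits that left out a sample, Ctsl in 9 of 12 and Atp6v1a in 7 of 12. The Ctsl call was lost without eGFP of pool 1, 2 or 3 (limma adjusted p = 0.176, 0.080 and 0.104). A test over all 5 groups with the block called the same 3 genes, against 6.99% of all genes, and none without it, against 1.67%.

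**Figure D3:**
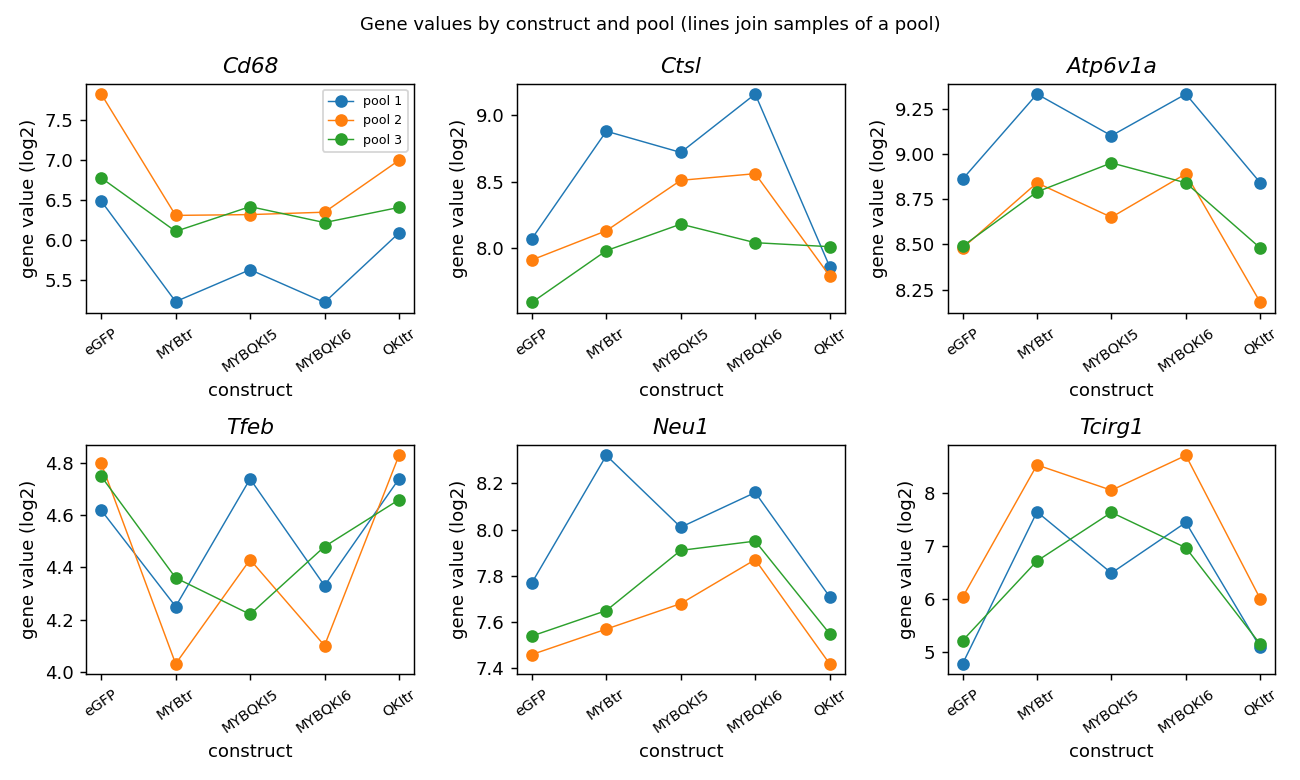
Log2 values (vertical axes) of 5 of the genes and of Tcirg1, a further V0 subunit, in the 5 construct groups (horizontal axes). Each point is 1 sample, coloured by pool, with lines joining the samples of a pool. Cd68 is lower than eGFP and Ctsl, Atp6v1a, Neu1 and Tcirg1 are higher than eGFP with each MYB construct in all 3 pools.

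Tfeb read 4.62, 4.80 and 4.75 with eGFP, 4.25, 4.03 and 4.36 with MYBtr, 4.74, 4.43 and 4.22 with MYBQKI5, 4.33, 4.10 and 4.48 with MYBQKI6 and 4.74, 4.83 and 4.66 with QKItr. The MYBtr and MYBQKI6 samples lay below all eGFP samples and those of MYBQKI5 overlapped with them. The differences were -0.51, -0.26 and -0.42, with limma adjusted p = 0.150, 0.934 and 0.351, and 0.054, 0.497 and 0.147 with the block. Tfeb lay between the 25th percentile and the median of all genes on every column. Tfe3, its relative, had differences of 0.28, 0.26 and 0.19, none of them called.

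Neu1 encodes the lysosomal sialidase, which works in a complex with the product of Ctsa. It read 7.77, 7.46 and 7.54 with eGFP and 8.16, 7.87 and 7.95 with MYBQKI6, with no overlap. The difference was 0.40 (limma adjusted p = 0.638, and 0.086 with the block), and it was 0.25 with MYBtr and 0.28 with MYBQKI5. Ctsb was 0.40 higher with MYBtr (limma adjusted p = 0.554, and 0.125 with the block). Scarb2, the membrane receptor that carries glucocerebrosidase to the lysosome, differed by -0.27, -0.29 and -0.34, with no call.

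By role, the glycosidases and other hydrolases had 6 of 7 differences above 0 with each MYB construct, against 47.1%, 48.5% and 48.8% of all genes. Their medians were 0.20, 0.06 and 0.07, and none was called. The V1 subunits had medians of 0.01, -0.05 and 0.03 and the V0 subunits of -0.08, -0.09 and 0.02. With QKItr the 11 listed pump genes had negative differences: 6 of 6 V1 subunits (-0.25 to -0.09, median -0.21), 4 of 4 V0 subunits (median -0.10) and Atp6ap1 (-0.09). None of these 11 was called with or without the block, and 48.3% of all genes had a difference above 0 in that comparison. The 15 further pump subunits had a median of 0.01, and 7 of the 15 lay above the gene median on all 15 columns. The 10 genes with TCACGTG had medians of 0.11, 0.06, 0.07 and -0.04 with MYBtr, MYBQKI5, MYBQKI6 and QKItr, and the 22 without had 0.07, 0.04, 0.01 and -0.03.

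The MYB constructs were also compared with each other, MYBQKI5 and MYBQKI6 differing in the QKI splice form. None of the 38 genes was called in the 3 pairs, with or without the block, and neither was any other gene (0%). At an unadjusted p under 0.05 there were 0, 0 and 0 without the block and 0, 2 and 1 with it, against 8.32%, 6.21% and 4.39% of all genes with the block, for MYBQKI5 against MYBtr, MYBQKI6 against MYBtr and MYBQKI6 against MYBQKI5. For Cd68 the difference between MYBQKI6 and MYBQKI5 was -0.19 (95% interval -1.04 to 0.67, and -0.57 to 0.20 with the block). For Ctsl it was 0.12 (95% interval -0.46 to 0.70), and for Atp6v1a 0.12 (-0.33 to 0.57). These intervals do not show that the constructs act alike.

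In the pool set the test of single probe sets against the rest of their gene called 0, 1, 0 and 0 of 541 with MYBtr, MYBQKI5, MYBQKI6 and QKItr, against 0.0972%, 0.0605%, 0.0458% and 0.0553% of all probe sets. With the block it called 2, 4, 2 and 0, against 0.275%, 0.180%, 0.135% and 0.164%. Probe set 17352754 of Npc1, the gene of a cholesterol exporter of the lysosomal membrane, was -1.54 relative to the rest with MYBQKI5 (diffSplice adjusted p = 0.0079). The same probe set was -1.10 with MYBtr and -0.90 with QKItr, with diffSplice adjusted p = 0.208 and 0.878. With the block the adjusted p was 4.5e-04 with MYBQKI5, 0.044 with MYBtr and 0.289 with QKItr. This probe set was dim, at 1.88, 2.49 and 4.75 with MYBQKI5, where the 25th percentile of probe sets was 3.77 to 3.87. It read 3.30, 4.74 and 4.97 with MYBQKI6 and 4.24, 3.81 and 5.28 with eGFP. The smallest adjusted p with the block was that of Cd63 probe set 17238595 with MYBtr (1.14, diffSplice adjusted p = 8.1e-05, and 0.794 without the block). That probe set read 6.02, 6.55 and 6.10 with MYBtr and 5.35, 5.73 and 5.36 with eGFP. The remaining block calls lay in Ctsa, Atp6v0a2 and Grn with MYBQKI5 and in Atp6v1a and Atp6v1b2 with MYBQKI6.

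Most of the 38 genes differed from pool to pool. In limma with construct and pool as terms, a test added after the values were seen, 29 of the 38 genes differed among the 3 pools, against 34.0% of all genes. With the brightest probe set of each gene in place of the mean, 19 did, but the share of all genes was not taken under that setting. The 34.0% includes dim genes, while 37 of the 38 lay above the gene median on all 15 columns, so brightness was not matched. Of 2 other lists mostly above that median, 15 of 19 autophagy genes and 7 of 19 endosome genes differed. Whether the share is particular to the 38 was not tested. Among the 38, pool 2 against pool 1 gave 23 calls (26.4% of all genes), 8 higher (13.6% of all genes were) and 15 lower (12.8%). Pool 3 against pool 1 gave 23 calls (31.7%), 2 higher (15.1%) and 21 lower (16.6%). Pool 3 against pool 2 gave 5 calls (6.40%), all of them lower (3.10%, with 3.30% higher), in Ctsd, Lamp2, Psap, Scarb2 and Tfe3.

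The 10 listed V1 and V0 subunits of the proton pump all had lower estimates in pools 2 and 3 than in pool 1. Of all genes, 40.4% and 38.6% had a difference above 0 in these 2 contrasts. Both contrasts share the samples of pool 1 and are not independent. A list of 15 further subunits had medians of 0.03 and -0.10, and 4 of the 15 differed among pools, against 34.0% of all genes. Only 7 of the 15 lay above the gene median on all 15 columns, so these medians say little about the brighter subunits. Of these, Atp6v1g1 (7.41 to 7.68 against 6.91 to 7.21) and Atp6ap2 (8.50 to 8.94 against 7.80 to 8.31) were wholly higher in pool 1. Atp6v1g2, Atp6v0e, Atp6v0e2, Rnasek and Tmem9 overlapped between pools. All 6 V1 subunits had negative differences, with medians of -0.44 and -0.47, and 5 of the 6 were called lower in each pool. So had all 4 V0 subunits (medians -0.36 and -0.31), with 2 called lower in each pool. Atp6v0d1, the d subunit that joins the sectors, read 9.70 to 9.83 in the 5 samples of pool 1, 9.09 to 9.23 in pool 2 and 9.03 to 9.15 in pool 3. Pool 1 thus stood apart from the other pools, which overlapped. The differences were -0.61 and -0.68, with limma adjusted p = 7.3e-05 and 1.3e-05. Atp6v1b2 was lower by about as much, with differences of -0.69 and -0.74 (limma adjusted p = 7.3e-05 and 1.6e-05).

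Membrane proteins and enzymes did not all follow. Cd63, a tetraspanin of late endosomes, differed by -0.56 and -0.78 in pools 2 and 3 and Lamp1 by -0.43 and -0.57. Ctsd, the aspartic protease cathepsin D, read 10.69 to 10.93 in pool 1 and 9.88 to 10.25 in pool 3, and differed by -0.74 (limma adjusted p = 1.0e-04). Cd68 went the other way, 1.03 higher in pool 2 and 0.65 higher in pool 3 (limma adjusted p = 1.7e-04 and 0.0027). Ctsf was 0.54 higher in pool 2 (limma adjusted p = 0.016), and Glb1, beta-galactosidase, was 0.33 and 0.48 higher. All 7 proteases differed among pools, 6 of 8 membrane proteins, 5 of 7 other hydrolases, 2 of 3 luminal proteins and 1 of 2 transcription factors. Atp6ap1 did not pass.

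Some cell type markers differed among pools too, to be read against 34.0% of all genes: 4 of 10 for neural stem cells, 3 of 12 for microglia and macrophages, 3 of 8 for astrocytes, 4 of 5 for oligodendrocyte precursors, 1 of 6 for oligodendrocytes, 2 of 7 for neurons and 3 of 8 for fibroblasts and vessels. The microglial list had medians of -0.20 and -0.16 in pools 2 and 3 against pool 1, where Cd68 was higher, and the astrocyte list had 0.36 and 0.38. Their part in the pool differences was not tested. The labels do not describe what sets the pools apart.

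**Figure D4:**
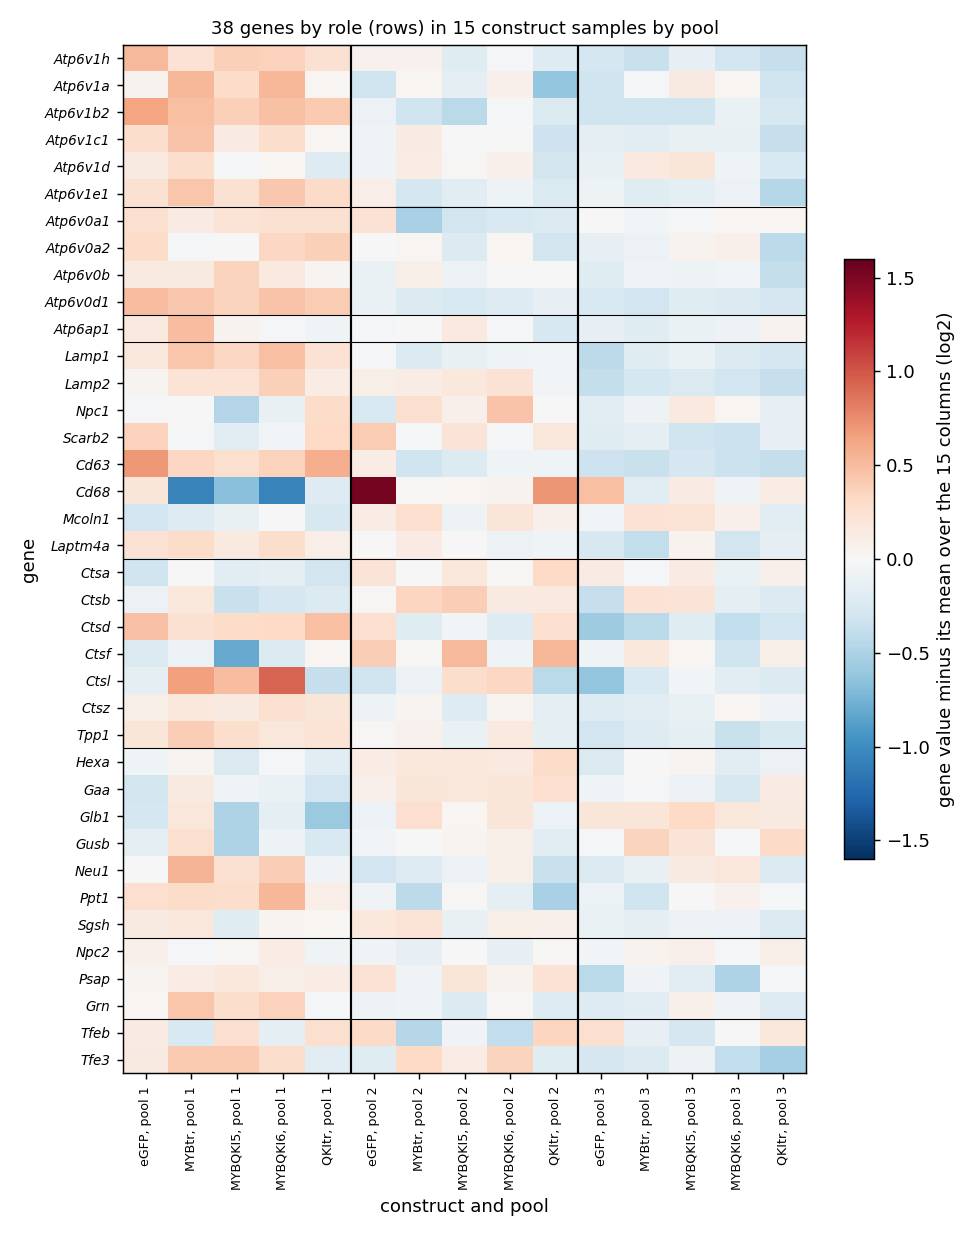
Value of each of the 38 genes (vertical axis, ordered by role) in the 15 pool samples (horizontal axis, pools 1, 2 and 3 from left to right), as the log2 difference from the gene's mean over the 15. The 10 V1 and V0 subunits are mostly above their means in pool 1, and the 3 MYB samples of pool 1 are the lowest for Cd68.

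Beyond the 38, 7 lists of related genes held 143 names, of which 137 were measured: further vacuolar ATPase subunits, further hydrolases, further membrane proteins, sorting factors, regulators, autophagy genes and endosome genes. Among the 3 pools 4 of 15, 14 of 31, 12 of 18, 10 of 17, 9 of 18, 15 of 19 and 7 of 19 differed, in that order, against 34.0% of all genes. Qk suppression called 0 of the 137, with 2 at an unadjusted p under 0.05, against 7.49% of all genes. Without the block, the constructs called 1, 0, 1 and 0 of them, and with it 9 higher and 3 lower (MYBtr), 3 and 1 (MYBQKI5), 4 and 3 (MYBQKI6) and 0 (QKItr). Of all genes 5.97%, 2.63%, 4.39% and 0% were called with the block, so the counts of 137 lay near the background except with MYBtr, where they were higher. At an unadjusted p under 0.05 the block fits had 41, 25, 27 and 5, against 17.2%, 13.5%, 14.6% and 4.60% of all genes. Without the block there were 17, 10, 13 and 1, against 9.44%, 6.80%, 7.82% and 1.56%. The lists were chosen with earlier results known, so these shares are no test of the lists. The gene called without the block was Tpcn1, a cation channel of endosomes and lysosomes, with differences of 1.06 and 0.96 for MYBtr and MYBQKI6 (limma adjusted p = 0.014 and 0.027). With the block Tpcn1 was called higher with each MYB construct, and Cd164, also of the membrane list, was called higher with MYBtr.

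The largest of the differences called with the block was in another form of the proton pump. Tcirg1 encodes the a3 form of the V0 a subunit, which is known from osteoclasts. It read 4.77, 6.03 and 5.21 with eGFP, 7.65, 8.54 and 6.72 with MYBtr, 6.49, 8.06 and 7.64 with MYBQKI5, 7.45, 8.72 and 6.97 with MYBQKI6 and 5.08, 6.00 and 5.14 with QKItr. All 9 MYB values lay above all eGFP values. The differences were 2.30, 2.06 and 2.38, with limma adjusted p = 4.8e-04, 0.0024 and 4.8e-04 with the block and 0.054, 0.179 and 0.063 without. The difference was 0.07 with QKItr and -0.32 with Qk suppression (limma adjusted p = 0.717). Among the subunits of the main list, Atp6v0a1 differed by -0.31 with MYBtr and was not called.

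Of 31 further hydrolases, Ctsc, the dipeptidyl peptidase cathepsin C, fell with each MYB construct with the block, by 0.86, 0.80 and 0.81 log2 units (limma adjusted p = 0.0071, 0.022 and 0.013). Naglu and Arsa, which degrade heparan sulfate and sulfatide, rose with MYBtr by 0.62 and 0.53 (limma adjusted p = 0.022 and 0.037, with the block). Of 17 sorting factors, Igf2r, the large mannose 6-phosphate receptor that brings enzymes to the lysosome, rose with MYBtr by 1.22 and with MYBQKI6 by 1.05 (limma adjusted p = 0.011 and 0.031, with the block). M6pr, the small receptor, rose by 0.48 with MYBtr. Of 18 regulators, Rragd, a Rag GTPase that acts with mTORC1 at the lysosome, rose with each MYB construct by 0.59, 0.54 and 0.57 (limma adjusted p = 0.012, 0.036 and 0.019, with the block). Fnip2, a partner of folliculin at the lysosome, fell with MYBtr and MYBQKI6 by 0.59 and 0.60, and Fnip1 rose with MYBtr. Of 19 autophagy genes Gabarapl1 fell with MYBtr and MYBQKI6, and of 19 endosome genes none was called.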

How the data were processed

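Total RNA of mouse neural stem cells was labelled with biotin and hybridised to Affymetrix arrays, per the labels. The values the authors deposited are on a log2 scale, judged from their range, and how they were normalized is not given in the sources used here. The 18 pool arrays (medians 5.61 to 5.74) and the 8 suppression arrays (5.39 to 5.51) have medians of their own, so nothing was compared across these sets. Probe sets that named 1 gene (233753 of 269751) were averaged per gene, with no filter on dim signal. Of the 23152 symbols, 20875 were current in RefSeq, 2189 were updated and 88 were unmatched.

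The fits used limma 3.58.1 under R 4.3.3, with data.table (version 1.17.8), and group means as terms. Adjusted p-values are Benjamini-Hochberg over all genes, and values from limma in the text are from these fits. The 8 suppression arrays were fitted with the second title number as a block, and the 15 pool columns without a block, with the pool number as a block beside it. Samples that share a number deviated together from their group means. The 30 same-pool pairs correlated at 0.31 to 0.72 and the 5 same-number suppression pairs at 0.22 to 0.57. Other pairs had medians of -0.23 and -0.21. Deviations within a group sum to 0, so positive same-number pairs push the other pairs below 0, and these medians add no contrast. The fits were run on simulated data with independent noise and large planted changes. That check bears neither on small changes nor on how a block handles samples that deviate together. Members called in a comparison were named, filled up to 3 in each direction by smallest p, with up to 3 called genes of each further list. The genes, lists and tests were chosen with earlier results of these data known. Other gene values, scalings, filters and left-out samples were tried. Promoters came from RefSeq (GRCm38.p6), and matplotlib 3.10.9 in Python 3.11.15 drew the figures.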

Additional observations from a re-analysis of the deposited data

Results flagged for a closer look

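In the 5 arrays of the Qk suppression group, 40 genes (the 38, Qk and Myb) were checked for a single array far from the other 4, and 2 stood out. Atp6v0a1, a V0 subunit, read 7.90 on array 5_2 and 7.47 to 7.59 on the others, a gap of 0.719 of the whole range. Mcoln1, the lysosomal calcium channel, read 7.67 on array 9_1 and 7.18 to 7.29 on the others, a gap of 0.769. The limit for 5 samples is 0.710, and chance passes it in about 1 in 20 groups, so 2 of 40 is the number that chance gives. Groups of 3 were not checked.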

How the results depend on the processing

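Under every alternative run for Qk suppression (no replicate block, other gene values, filters and scalings, each array left out), 0 of the 38 genes were called. The pool number as a replicate block moved the members called from 0 to 1 with MYBtr (1 to 2 with a sample left out), 1 with MYBQKI5 (0 to 1), 2 with MYBQKI6 (1 to 2), 3 for the MYB constructs together (1 to 5) and 3 over the 5 construct groups (1 to 4). It changed no call with QKItr or between MYB constructs. For single probe sets it gave 2, 4 and 2 calls with MYBtr, MYBQKI5 and MYBQKI6, against 0, 1 and 0. With Qk suppression, 3 such calls became 1 to 2 when an array was left out. The 29 genes that differed among pools became 19 with the brightest probe set per gene and 23 to 29 with a sample left out. For fits with other gene values or a sample left out, the share of all genes was not taken.

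Over all named differences and alternatives there were 12 turns of sign, none of them in a called difference. For MYBQKI5 against MYBtr these were Cd68 (-0.09 without MYBtr of pool 1, and -0.09 to 0.48 over left-out samples), Gusb (0.03) and Tfeb (-0.18) with the brightest probe set, Tfeb with the median of probe sets (-0.02) and Ppt1 without dim probe sets (-0.01). For MYBQKI6 against MYBQKI5 they were Ctsz with the brightest probe set (-0.14), Tfeb with the median (0.10), Psap without MYBQKI6 of pool 3 (0.02, range -0.29 to 0.02) and Npc1 with the replicate block and without MYBQKI5 of pool 1 (0.00). For MYBQKI6 against MYBtr they were Ctsl without MYBQKI6 of pool 1 (-0.02, range -0.02 to 0.53) and Ppt1 without dim probe sets (-0.01), and for QKItr Psap without eGFP of pool 3 (-0.03, range -0.03 to 0.29). The cause was not tested. Low signal limits Tfeb and single probe sets most, and 3 samples per group limit every interval in the pool set.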
